A study of Mus musculus with 36 samples.

Results

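This account follows 9 genes that let a macrophage receive the signals for becoming an osteoclast: RANK (Tnfrsf11a), its adaptor Traf6, the M-CSF receptor (Csf1r), the ITAM adaptors Tyrobp (DAP12) and Fcer1g (FcRγ), the receptors Oscar and Trem2 that pair with those adaptors, and the signalling enzymes Syk and Plcg2. They are members by name, on a rule that uses no measured value, though the set was drawn up with earlier results of these data known. All 9 were found among the 30205 genes quantified. RNA-seq libraries were made from primary cells of 20-week-old mice that were either wild-type controls (WT) or Mir324-null, without the microRNA gene Mir324. Each genotype gave 3 kinds of culture with 6 libraries each, 36 libraries in 6 groups. Bone marrow macrophages (BMM) were grown from flushed marrow for 3 days in M-CSF at 100 ng/mL and then kept for 5 days in M-CSF at 30 ng/mL. The cultures labelled osteoclasts (OC) came from the same kind of macrophages, kept for 5 days in M-CSF at 30 ng/mL plus RANK-L at 50 ng/mL. Osteoblast cultures (OB) grew out of collagenase-treated bone chips for about 6 weeks and then spent 18 days in osteogenic medium with β-glycerophosphate at 2 mM and ascorbic acid at 50 µg/mL, with no added M-CSF or RANK-L stated. The question was whether null macrophages hold the transcripts of the receptors that a response to RANK-L needs.

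RANK is a member of the TNF receptor family on osteoclast precursors. When RANK-L binds, Traf6 is recruited to its tail and NF-κB and MAP kinase signalling follow. Csf1r is the receptor tyrosine kinase through which M-CSF keeps macrophages alive and dividing. Osteoclast formation needs a co-stimulatory signal as well: receptors such as Oscar and Trem2 have no signalling motif of their own and use the tyrosine motifs (ITAMs) of Fcer1g or Tyrobp, which recruit the kinase Syk, which in turn activates phospholipase Plcg2 and the calcium signal that switches on Nfatc1.

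The libraries held 14118972 to 26347581 estimated counts. All 11 macrophage markers checked reached 1 TPM in both BMM groups, but single markers differed both ways: median Adgre1 was 868 TPM in WT and 3140.0 TPM in null, and median C1qa 2635 and 1239 TPM. The summed osteoclast markers (7 genes, among them Ctsk and Acp5) stood at 30709 to 34996 TPM in WT OC but at 233 to 566 TPM in null OC, so the libraries labelled null OC held little osteoclast marker RNA. Summed macrophage markers were 57668 to 69706 TPM in null OC and 17319 to 19626 TPM in WT OC. Most of each sum was Lyz2 (median 49643 TPM in null OC and 12048 in WT OC). Of the 11 markers, Cd68 alone had a lower median in null OC (2376 against 3244 TPM). The OB cultures were mixed: summed macrophage markers were 19917 to 24537 TPM in WT OB and 11340 to 16963 TPM in null OB. Null BMM replicates 1, 5 and 6 lay on the other side from 2, 3 and 4 of a first component that held 52% of the group's variance. The loadings were graded (0.19 for replicate 4 and -0.31 for replicate 6), and first components of the other groups held 35.6% to 48.3%. Null OC replicates 3 and 6 had the fewest counts of their group. Null OC replicate 6 also had 77.7 TPM of osteoblast markers, against 14.9 to 26.5 TPM in the other 5. The labels do not say which libraries came from which mouse, so p-values measure the spread between these libraries. Bulk RNA cannot tell fewer cells of a type from less RNA per cell.

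Null macrophages held transcripts of 8 of the 9 genes, and the gene that was at or near 0, Oscar, was at or near 0 in WT macrophages too. Between null and WT BMM, 4 of the 8 genes tested passed an adjusted p of 0.05, with 1 higher and 3 lower, where 52.3% of all genes tested passed (27.0% higher and 25.4% lower). The count was 7 of 8 with an offset that removes trends with transcript length and GC content (the length and GC offset) and 7 of 8 with limma on TPM. The shares of all genes called with these settings are not given here, so these counts cannot be read as particular to the 8 genes. With limma on TPM the median over all genes was -0.14. The genes that differed were Traf6, Tnfrsf11a and Fcer1g, lower in null, and Syk, higher in null. The median log2 fold change (log2 change) of the 8 was -0.13, against 0.02 over all genes tested. In the RANK-L cultures 8 of 9 passed, 5 higher and 3 lower in null, beside 65.6% of all genes (32.4% higher and 33.1% lower). The higher ones, Csf1r, Fcer1g, Trem2, Syk and Plcg2, moved with the summed macrophage markers given above. That sum was mostly Lyz2, and the part of these markers in the result was not tested. In OB cultures 4 of 9 passed, 1 higher and 3 lower, beside 32.5% of all genes (15.5% and 16.9%). All of these are edgeR quasi-likelihood tests with Benjamini-Hochberg adjustment over every gene tested.

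**Figure D1:**
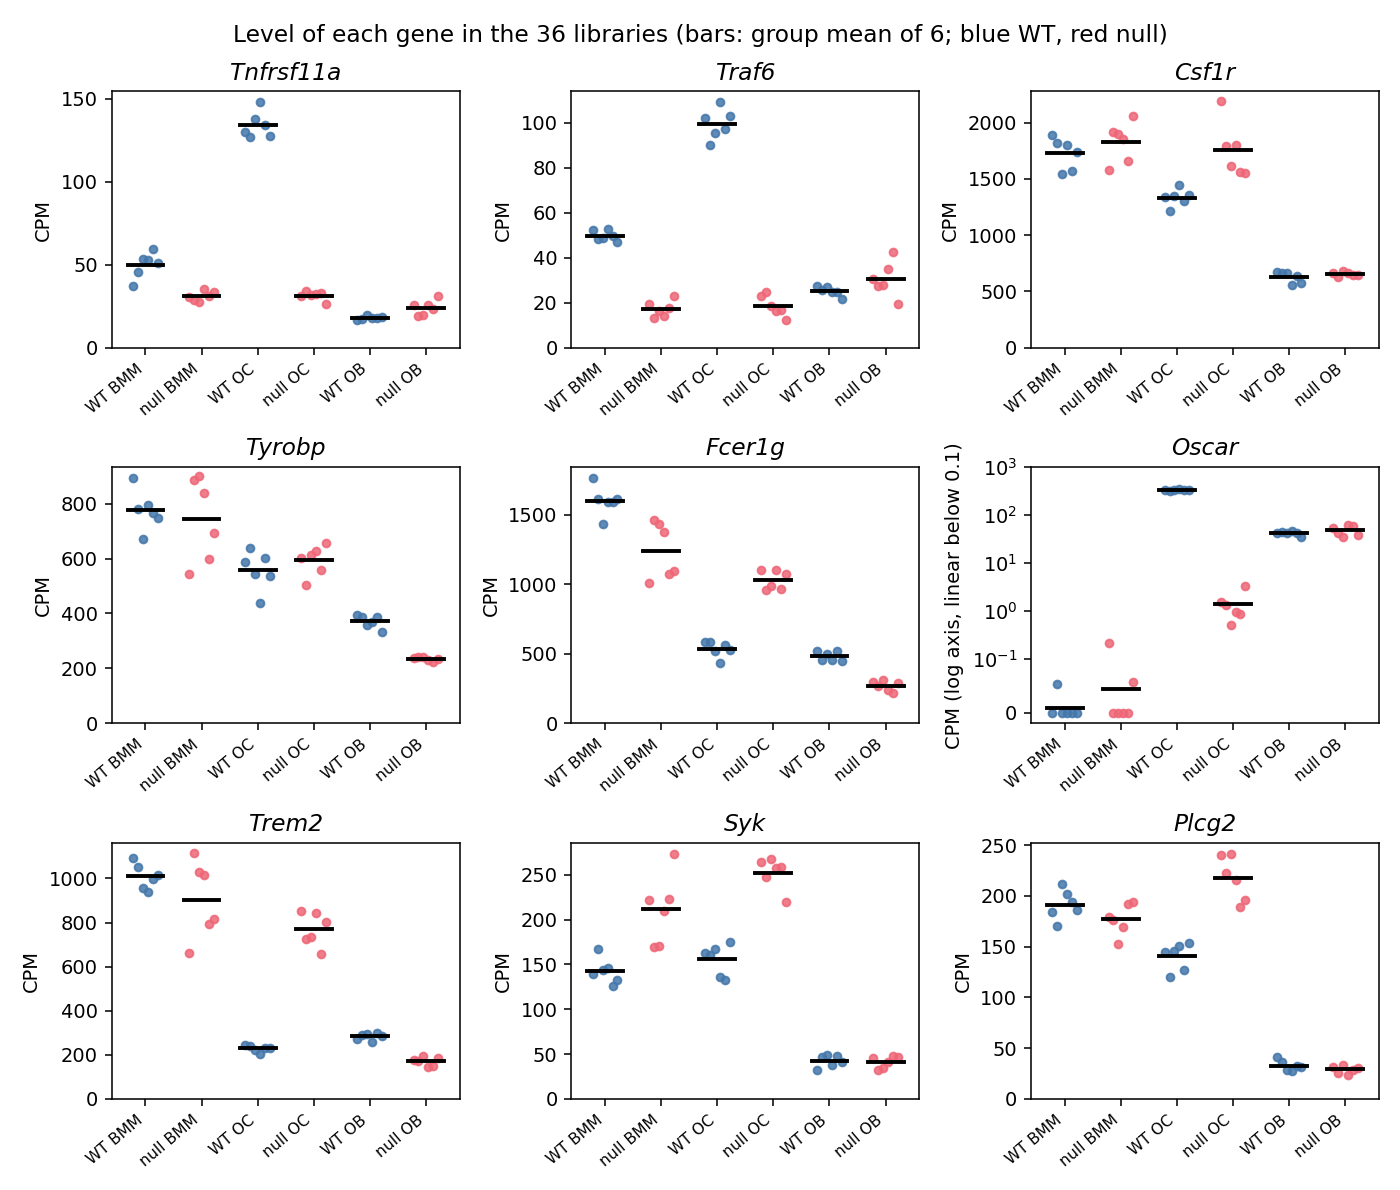
Normalised read counts (CPM) of each of the 9 genes in all 36 libraries, grouped by genotype and culture, with points for libraries and bars for the mean of 6; the Oscar panel has a log axis that is linear below 0.1. Tnfrsf11a and Traf6 are highest in WT OC (means 134 and 99.5 CPM) and overlap between the null BMM and null OC groups, while Oscar averages 336 CPM in the WT RANK-L cultures and 1.44 CPM in those of null cells.

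WT OC differed from WT BMM in 8 of 9 genes (3 higher, 5 lower) beside 60.5% of all genes tested (30.4% higher and 30.1% lower). Null OC differed from null BMM in 4 of 9 (2 higher, 2 lower) beside 12.9% of all genes (6.78% and 6.07%). That count was 2 with no filter, with the length and GC offset and with the replicate block, and 1 with block and offset together. It was 2 without WT BMM replicate 6, null BMM replicate 2, 3 or 4, WT OC replicate 3, 5 or 6, or null OC replicate 2, 3 or 5, and 3 to 5 without any other single library. Over all genes this comparison had 1628 calls, 1016 with block and offset together, and 810 to 2143 without single libraries. The response to RANK-L itself differed between the genotypes for 7 of 9 genes, in the test of the interaction of genotype with RANK-L, 4 with a positive and 3 with a negative difference, beside 51.4% of all genes (25.3% and 26.1%). The share of the 9 genes was close to that of all genes in the BMM and OB comparisons, and no test was run on any of these shares.

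Tnfrsf11a encodes RANK itself, on chromosome 1 (105780718 to 105847981, plus strand, GRCm38). In CPM, the lowest, median and highest WT BMM libraries had 37.4, 52.0 and 59.5, and the null BMM libraries 27.2, 30.7 and 35.2. All 6 null libraries lay below all 6 WT libraries. Null macrophages thus held 1.60-fold less of the transcript (log2 change -0.68, SE 0.10, adjusted p 4.71e-05). The difference was -0.74 without null BMM replicates 1, 5 and 6, and -0.64 without replicates 2, 3 and 4, so both parts of the null group were lower.

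With RANK-L, WT cells raised Tnfrsf11a to 127, 132 and 148 CPM (lowest, median and highest), 2.67-fold above WT BMM (log2 change 1.42, SE 0.09, adjusted p 5.81e-14). Null OC libraries had 26.3, 31.8 and 34.3 CPM, within the range of null BMM apart from 1 library below it. The log2 change with RANK-L in null cells was 0.02 (SE 0.09, adjusted p 0.892), and the difference between the genotypes' responses was -1.39 (SE 0.13, adjusted p 2.95e-10). After 5 days with RANK-L the null cultures held 4.25-fold less Tnfrsf11a than the WT cultures (log2 change -2.09, SE 0.07, adjusted p 9.70e-14). Without null OC replicates 3 and 6 this was -2.02.

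In the OB cultures Tnfrsf11a was low in both genotypes and went the other way. WT OB libraries had 16.8, 17.9 and 19.7 CPM and null OB libraries 19.2, 24.6 and 31.0 CPM, and the ranges overlapped. The log2 change of 0.42 (SE 0.11, adjusted p 0.00786) was 0.24 and not past the threshold with the length and GC offset. Osteoclast markers summed to 4059 to 5104 TPM in WT OB and 5304 to 8010 TPM in null OB, and their part in this result was not tested.

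Traf6, the ubiquitin ligase that carries the RANK signal inward, lies on chromosome 2 (101678429 to 101701669, plus strand). Its CPM in WT BMM was 47.1, 49.1 and 52.7 (lowest, median and highest) and in null BMM 13.2, 16.8 and 23.1. The groups were far apart: null macrophages held 2.87-fold less (log2 change -1.52, SE 0.12, adjusted p 2.23e-08). RANK-L brought Traf6 to 90.1, 99.7 and 109 CPM in WT OC, 2.00-fold above WT BMM (log2 change 1.00, SE 0.13, adjusted p 8.31e-08). Null OC stayed at 12.2, 17.8 and 24.8 CPM, a log2 change of 0.12 (SE 0.13, adjusted p 0.565) from null BMM. The responses differed by -0.87 (SE 0.18, adjusted p 2.15e-04). Null OC held 5.30-fold less Traf6 than WT OC (log2 change -2.40, SE 0.13, adjusted p 7.81e-11). In OB cultures the change was 0.27 (SE 0.15, adjusted p 0.173), and it was 0.41 and past the threshold with limma on TPM, -0.01 with the length and GC offset, and 0.37 and past the threshold without null OB replicate 6, whose 19.6 CPM was the lowest of the group.

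RANK and Traf6 were thus both lower in null macrophages, and by unequal amounts. Per length of transcript, in TPM, the median ratio of Traf6 to Tnfrsf11a was 0.700 in WT BMM and 0.413 in null BMM, with ranges (0.640 to 0.926 and 0.297 to 0.519) that did not overlap. In the RANK-L cultures it was 0.527 in WT and 0.384 in null, and these ranges met (0.479 to 0.587 and 0.334 to 0.499).

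Mir324 makes 2 mature microRNAs, and a microRNA pairs with its target chiefly through its seed, bases 2 to 8. Their sequences (RefSeq, GRCm38.p6, chromosome 11) are shown because they are what the null cells lack, with the seed in capitals.
mmu-miR-324-5p: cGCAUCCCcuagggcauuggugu
mmu-miR-324-3p: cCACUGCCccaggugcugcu
The longest annotated 3′ UTR of each of the 9 genes was searched for the 7 bases that pair with each seed. GGGATGC, which pairs with the 5p seed, is found in 8.2% of 21139 genes, and GGCAGTG, which pairs with the 3p seed, in 14.1%. In these UTRs only Tnfrsf11a and Syk held a 5p match, 1 each, and none of the 9 held a 3p match. For Tyrobp, Fcer1g, Oscar and Csf1r the longest UTR is not that of the transcript with most of the gene's TPM. The UTRs of those main transcripts were not searched. The matches stand at base 405 of 3115 in Tnfrsf11a and base 2849 of 2997 in Syk, with the match in capitals below.
Tnfrsf11a: aaagagtgaaaGGGATGCacggccactac
Syk: gtgactccacaGGGATGCcaggtctgtga
In null BMM these 2 genes moved in opposite directions, Tnfrsf11a lower and Syk higher. A match is a description of the sequence and not a site shown to be bound.

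Csf1r, on chromosome 18 (61100598 to 61132149, plus strand), was abundant in macrophages of both genotypes. WT BMM had 1547, 1771 and 1892 CPM (lowest, median and highest) and null BMM 1578, 1877 and 2061 CPM, and the ranges overlapped nearly throughout. The log2 change was 0.09 (SE 0.07, adjusted p 0.321). With the length and GC offset it was 0.21 and past the threshold, and on the TPM scale -0.07. WT cells lowered Csf1r with RANK-L to 1215, 1339 and 1446 CPM (log2 change -0.38, SE 0.08, adjusted p 1.37e-04), below every WT BMM library. Null OC libraries had 1554, 1705 and 2195 CPM, and the change from null BMM was -0.05 (SE 0.08, adjusted p 0.700). Null OC was 1.32-fold above WT OC (log2 change 0.40, SE 0.08, adjusted p 1.99e-04), a difference that was 0.19 and not past the threshold on the TPM scale. The difference in response, 0.32 (SE 0.11, adjusted p 0.0153), was 0.09 and not past the threshold with the length and GC offset. Csf1r shares exonic bases with Hmgxb3 on the other strand and the labels do not say whether strand was used, so reads from that overlap cannot be assigned.

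For each Tnfrsf11a transcript the macrophages held many of Csf1r. The median ratio of Csf1r to Tnfrsf11a in TPM was 36.3 in WT BMM and 65.1 in null BMM. It fell to 10.6 in WT OC, where Tnfrsf11a rose and Csf1r fell, and was 57.3 in null OC. The lowest null BMM library (55.0) lay above the highest WT BMM library (49.7).

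The list of ligands and decoys of these receptors held 4 genes. Tnfsf11, which encodes RANK-L, had 0 counts in all 24 BMM and OC libraries, where the floor of 3 counts per library applies, and from 16.2 to 37.8 CPM in WT OB and from 13.5 to 41.9 CPM in null OB. Tnfrsf11b, the soluble RANK-L decoy osteoprotegerin, averaged 130.0 ± 15.4 CPM (SD, n = 6) in WT OB and 151 ± 18.1 in null OB, and its mean was at most 0.610 CPM in a BMM or OC group. Csf1, which encodes M-CSF, averaged 8.55 ± 3.60 CPM in WT BMM and 7.92 ± 2.34 in null BMM. WT cells lowered it with RANK-L to 1.17 ± 0.303 CPM, whereas null OC had 12.8 ± 5.05 CPM (null against WT, log2 change 3.45, SE 0.25, adjusted p 3.30e-09). Il34, the other ligand of Csf1r, rose with RANK-L in WT to 3.21 ± 0.734 CPM, at least 18.4-fold above the floor of 3 counts per library in WT BMM, and had at most 4 counts in any null OC library.

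**Figure D2:**
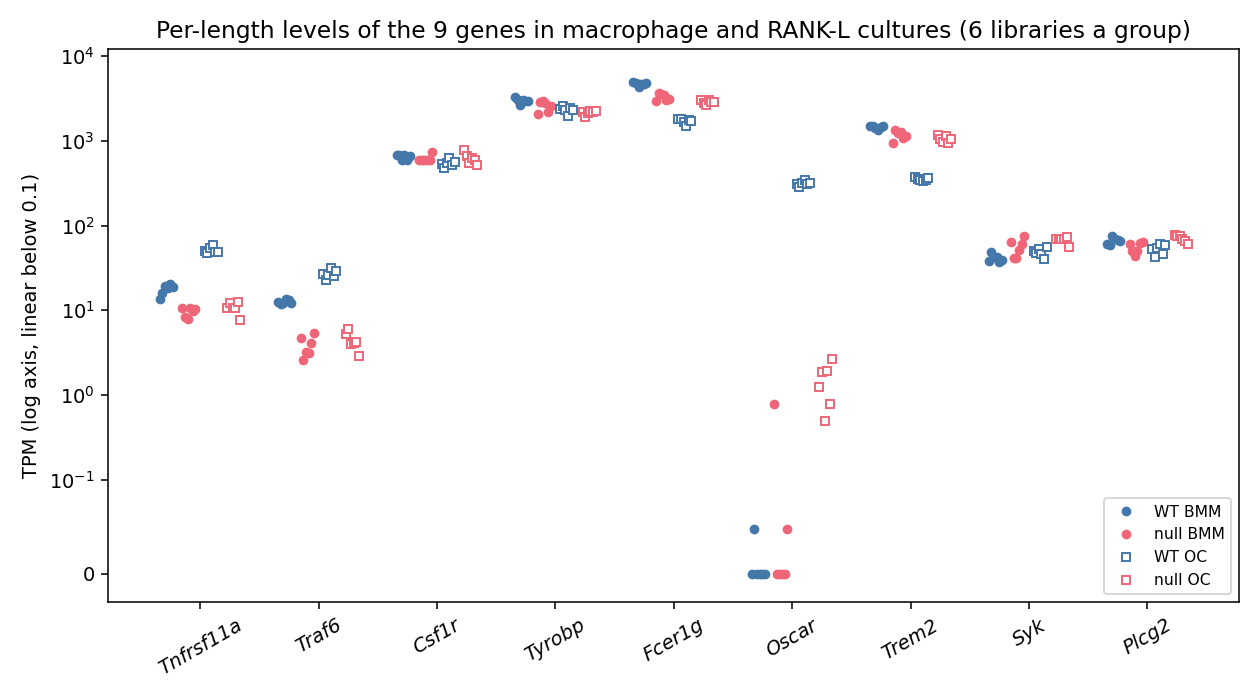
Per-length levels (TPM, log axis that is linear below 0.1) of the 9 genes in the BMM and OC libraries, with filled circles for BMM, open squares for OC, blue for WT and red for null. The adaptors Tyrobp and Fcer1g are the highest, from 1503 to 4978 TPM over all 24 libraries, the highest Tnfrsf11a library has 58.2 TPM and the highest Traf6 library 31.4 TPM, and Oscar reaches 287 TPM or more only in WT OC.

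The adaptors were the most abundant of the 9 transcripts. In TPM, Tyrobp averaged 2987 ± 198 (SD, n = 6) in WT BMM and 2573 ± 356 in null BMM, and Fcer1g 4747 ± 204 and 3316 ± 293. Tyrobp lies on chromosome 7 (30413760 to 30417585, plus strand) and Fcer1g on chromosome 1 (171229572 to 171234365, minus strand).

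Tyrobp showed no difference past the threshold in macrophages, but its null libraries were split. WT BMM had 673, 775 and 893 CPM (lowest, median and highest) and null BMM 543, 766 and 900 CPM. Null BMM replicates 1, 5 and 6 had 543, 599 and 692 CPM, and replicates 2, 3 and 4 had 886, 900 and 839 CPM, on either side of the WT median. The log2 change was -0.06 (SE 0.12, adjusted p 0.709), -0.32 and past the threshold without replicates 2, 3 and 4, and 0.16 without replicates 1, 5 and 6. With the length and GC offset it was -0.37 and past the threshold. RANK-L lowered Tyrobp in WT to 439, 566 and 640 CPM (log2 change -0.48, SE 0.11, adjusted p 2.99e-04). In null cells the change was -0.31 (SE 0.11, adjusted p 0.0492), a call that was lost in 17 of 24 fits that left out 1 library. The 2 genotypes' OC cultures differed by 0.10 (SE 0.08, adjusted p 0.315), or 0.23 and past the threshold with the length and GC offset.

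Fcer1g was lower in null macrophages and higher in null RANK-L cultures. WT BMM had 1436, 1602 and 1766 CPM and null BMM 1008, 1235 and 1465 CPM, with a small overlap. The log2 change was -0.36 (SE 0.09, adjusted p 0.00386), which was -0.57 without null BMM replicates 2, 3 and 4 and -0.19 without replicates 1, 5 and 6, past the threshold both times. RANK-L took Fcer1g in WT cells down 2.99-fold to 436, 546 and 588 CPM (log2 change -1.58, SE 0.09, adjusted p 3.04e-15). Null OC libraries had 959, 1032 and 1102 CPM, all above every WT OC library. The change with RANK-L in null cells was -0.26 (SE 0.08, adjusted p 0.0429), a call lost without any 1 of null BMM replicates 2, 3 or 4 or null OC replicates 2, 3 or 5 (-0.21 to -0.24) or of 4 WT libraries (-0.26), and at -0.05 with the length and GC offset. The responses differed by 1.32 (SE 0.12, adjusted p 3.29e-10), and null OC stood 1.93-fold above WT OC (log2 change 0.95, SE 0.07, adjusted p 3.85e-09).

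The balance of the adaptors followed these changes. The median of Tyrobp per Fcer1g in TPM was 0.628 in WT BMM and 1.34 in WT OC, so Tyrobp outnumbered Fcer1g only after RANK-L in WT cells among these 4 groups. It was 0.791 in null BMM and 0.748 in null OC, whose ranges (0.700 to 0.819 and 0.683 to 0.807) overlapped. No WT BMM library (0.603 to 0.657) reached the null BMM range.

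Oscar, an osteoclast receptor for collagen that signals through Fcer1g, lies on chromosome 7 (3609813 to 3616157, minus strand). It was at or below the floor of 3 counts in every BMM library except null BMM replicate 1, which had 4 counts. WT OC libraries had 321, 337 and 345 CPM (lowest, median and highest), at least 1928-fold above that floor. Null OC libraries had 0.509, 1.17 and 3.38 CPM, from 7 to 45 counts each. The WT mean was thus 233-fold the null mean in the RANK-L cultures (log2 change -7.90, SE 0.21, adjusted p 5.16e-14). In the fits limited to BMM and OC libraries, Oscar passed the count filter through WT OC, the group where it is high. Its p-values there, and its place among the genes called in those fits, are therefore no separate support. In null cells Oscar did rise with RANK-L: in CPM all 6 null OC libraries lay above all 6 null BMM libraries, 151 counts in all against 5, and the change passed the threshold (adjusted p 3.56e-05). In TPM the ranges overlapped, since null BMM replicate 1 had 0.792 TPM and null OC replicates 3 and 5 had 0.495 and 0.776 TPM. Null OC replicate 6, with the most osteoclast marker RNA of its group (566 TPM), also had the most Oscar. Leaving out replicates 3 and 6 gave a null against WT change of -8.10. The difference between the genotypes' responses passed the threshold, but not without null BMM replicate 1 (adjusted p 0.0756), since its size rests on libraries at or near 0 counts.

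Trem2, the other receptor, pairs with Tyrobp, binds lipids, and lies on chromosome 17 (48346401 to 48354147, plus strand). WT BMM had 938, 1006 and 1091 CPM and null BMM 663, 915 and 1113 CPM, the null range enclosing the WT range. The log2 change of -0.15 (SE 0.10, adjusted p 0.235) was -0.39 and past the threshold without null BMM replicates 2, 3 and 4, and 0.04 without replicates 1, 5 and 6. With the length and GC offset it was -0.30 and past the threshold. RANK-L lowered Trem2 4.41-fold in WT cells to 205, 230.3 and 245 CPM (log2 change -2.14, SE 0.09, adjusted p 2.76e-17). Null OC kept 659, 767 and 851 CPM (change from null BMM -0.22, SE 0.09, adjusted p 0.0931, or -0.30 and past the threshold without null BMM replicate 1). The responses differed by 1.92 (SE 0.13, adjusted p 6.74e-13), and null OC held 3.38-fold more Trem2 than WT OC (log2 change 1.76, SE 0.07, adjusted p 8.88e-13).

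With RANK-L, Oscar rose and Trem2 fell in WT cells until their levels were close. In TPM, Oscar made up 44.9% to 51.1% of the sum of both in WT OC (median 47.0%) and 0.0510% to 0.251% in null OC (median 0.139%). Trem2 made up nearly all of the sum in BMM of both genotypes.

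The promoters of Oscar and Tnfrsf11a are shown because these are the receptors among the 9 genes that rose with RANK-L in WT cells. Each runs from 250 bases before the gene's start to 50 after it (RefSeq, GRCm38.p6). They were searched on both strands for PU.1 (GAGGAA, in 28.3% of 27025 promoters of this length), NFAT (GGAAA, 61.3%), E-boxes CACGTG (7.2%) and CATGTG (14.1%), and AP-1 (TGANTCA, 7.9%), with matches in capitals. Oscar (chr7:3616108-3616407, minus strand) held 2 PU.1 matches, 4 NFAT matches and 1 CATGTG, and 1 PU.1 match overlaps an NFAT match. Tnfrsf11a (chr1:105780473-105780772, plus strand) held no match to any of these letters. The promoter of the adaptor Traf6, which also rose, held 2 PU.1 matches and no other.
Oscar: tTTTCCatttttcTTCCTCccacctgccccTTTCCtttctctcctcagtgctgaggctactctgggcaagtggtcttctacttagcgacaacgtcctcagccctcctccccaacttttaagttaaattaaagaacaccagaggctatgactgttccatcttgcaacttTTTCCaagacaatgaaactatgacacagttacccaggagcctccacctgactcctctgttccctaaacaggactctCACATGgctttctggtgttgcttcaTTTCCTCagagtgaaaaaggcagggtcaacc
Tnfrsf11a: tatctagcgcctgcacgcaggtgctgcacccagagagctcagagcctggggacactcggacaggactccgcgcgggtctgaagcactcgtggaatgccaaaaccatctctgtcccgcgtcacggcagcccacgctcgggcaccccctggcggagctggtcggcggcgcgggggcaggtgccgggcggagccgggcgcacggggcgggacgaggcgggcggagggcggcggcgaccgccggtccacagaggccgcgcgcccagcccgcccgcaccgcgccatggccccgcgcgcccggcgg

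Syk, the kinase that docks on phosphorylated ITAMs, was higher in null cells with and without RANK-L. It lies on chromosome 13 (52583173 to 52648792, plus strand). WT BMM had 126, 141 and 167 CPM (lowest, median and highest) and null BMM 169.8, 216 and 273 CPM, with no overlap (log2 change 0.58, SE 0.11, adjusted p 3.53e-04). The difference was 0.78 without null BMM replicates 2, 3 and 4 and 0.35 without replicates 1, 5 and 6, past the threshold both times. WT OC had 133, 162 and 175 CPM and null OC 219, 258 and 267 CPM, again with no overlap (log2 change 0.70, SE 0.07, adjusted p 2.90e-07). The change with RANK-L passed the threshold in neither genotype (0.13, SE 0.10, adjusted p 0.265 in WT and 0.26, SE 0.10, adjusted p 0.0715 in null). In null it was 0.35 without null BMM replicate 6 and 0.30 without null OC replicate 6, past the threshold both times, and it also passed with DESeq2 (0.26, adjusted p 0.0474). In WT it passed with the length and GC offset (0.24, adjusted p 0.0161) and with limma-voom (0.17, adjusted p 0.0415).

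Plcg2, the phospholipase downstream of Syk, lies on chromosome 8 (117498291 to 117635142, plus strand). WT BMM had 171, 190.0 and 212 CPM and null BMM 152, 178 and 194 CPM (log2 change -0.10, SE 0.07, adjusted p 0.247). It was -0.22 (adjusted p 0.0174) without null BMM replicates 1, 5 and 6, -0.25 (adjusted p 0.0438) with limma on TPM, and 0.03 with the length and GC offset. RANK-L lowered it in WT to 120.2, 145 and 154 CPM (log2 change -0.45, SE 0.08, adjusted p 1.15e-05). In null OC it was 189, 219 and 241 CPM, higher than null BMM by 0.30 (SE 0.08, adjusted p 0.0124). The opposite responses differed by 0.76 (SE 0.11, adjusted p 1.45e-06), and null OC stood 1.56-fold above WT OC (log2 change 0.64, SE 0.08, adjusted p 1.50e-06).

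**Figure D3:**
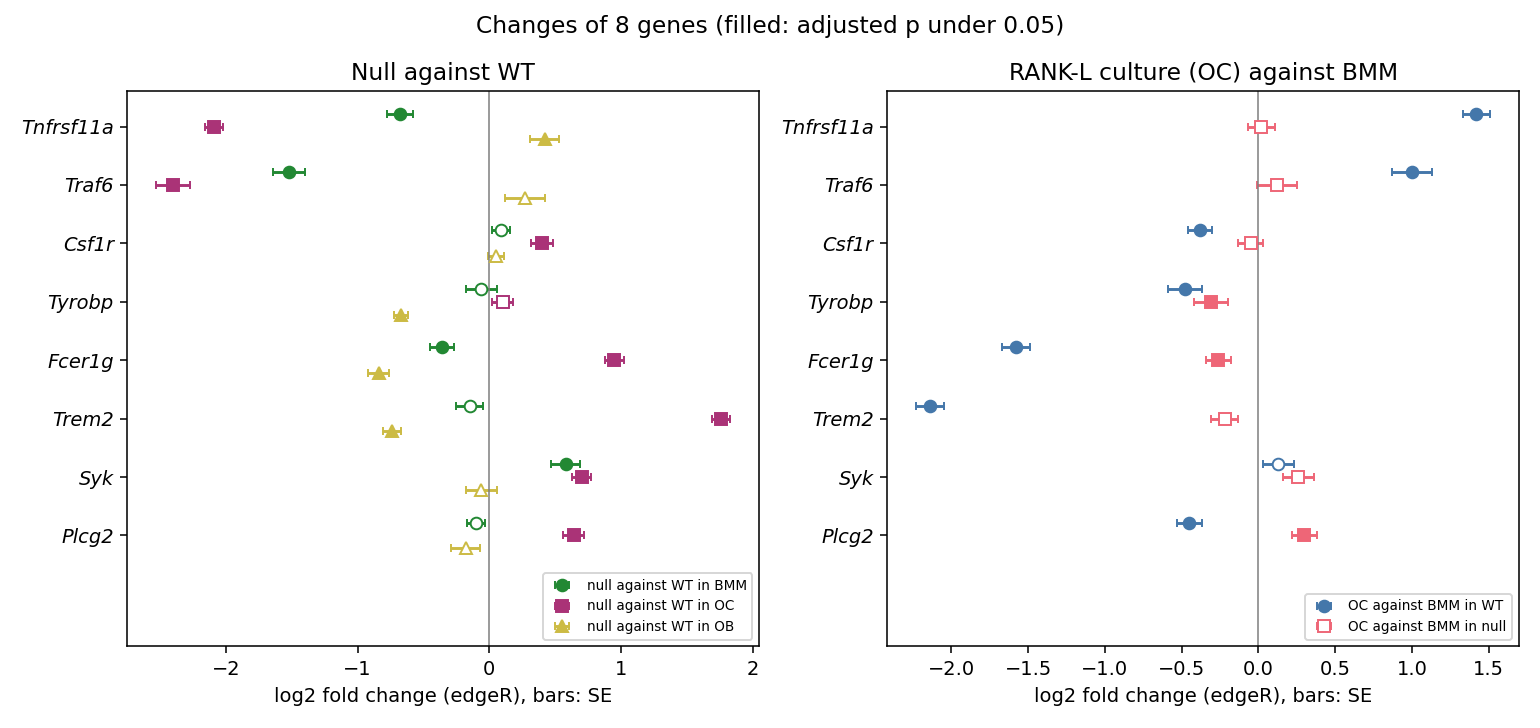
Log2 changes with SE for 8 of the 9 genes, null against WT in each culture (left) and RANK-L culture against BMM in each genotype (right), with filled symbols where the adjusted p was under 0.05. Tnfrsf11a and Traf6 lie left of 0 in BMM and OC and right of 0 in OB, and the null RANK-L changes lie between -0.31 and 0.30, where those in WT reach 1.42 and -2.14. Oscar is left out because its BMM libraries are at or near 0.

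In the OB cultures 3 of the 6 genes on the ITAM side, Tyrobp, Fcer1g and Trem2, were lower in null, beside 16.9% of all genes tested. Tyrobp was 332, 378 and 393 CPM in WT OB and 223, 235 and 242 CPM in null OB (lowest, median and highest; log2 change -0.67, SE 0.05, adjusted p 1.32e-06). Fcer1g changed by -0.84 (SE 0.08, adjusted p 6.20e-06) and Trem2 by -0.74 (SE 0.07, adjusted p 7.37e-06). The ranges of Tyrobp, Fcer1g and Trem2 did not overlap between genotypes, but the share of all genes with ranges apart was not counted. Csf1r (0.05, SE 0.06), Syk (-0.06, SE 0.12), Plcg2 (-0.18, SE 0.11) and Oscar (0.19, SE 0.14) did not pass the threshold. Plcg2 passed with the length and GC offset (-0.37, adjusted p 0.0218) and Csf1r with limma on TPM (0.24, adjusted p 0.00604). Oscar averaged 42.4 ± 4.30 CPM in WT OB and 48.6 ± 11.2 CPM in null OB, far above the BMM libraries. Summed macrophage markers were also lower in null OB (19917 to 24537 TPM in WT, 11340 to 16963 in null) and all 11 of them reached 1 TPM in both groups, and their part in these results was not tested. Most of each sum was Lyz2 (median 15073 TPM in WT OB and 10166 in null OB). Of the 11, Itgam alone had a higher median in null OB (24.9 against 23.7 TPM).

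The genotype effect in OB cultures differed from that in BMM for 6 of 9 genes, 2 with a positive and 4 with a negative difference, beside 45.9% of all genes tested (21.6% and 24.3%). Tnfrsf11a (difference 1.12, SE 0.14, adjusted p 2.48e-08) and Traf6 (1.81, SE 0.20, adjusted p 1.81e-09) were lower in null BMM but not in null OB. Tyrobp (-0.60), Fcer1g (-0.47), Trem2 (-0.57) and Syk (-0.62) had the more negative effect in OB. With the length and GC offset Tyrobp (-0.05), Fcer1g (0.03) and Trem2 (-0.25) no longer passed, while Csf1r (-0.31, adjusted p 0.0130) and Plcg2 (-0.38, adjusted p 0.00808) did. With limma on TPM, Fcer1g (-0.14) and Syk (-0.27) no longer passed, and Csf1r was 0.31 and did.

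Ordered by mean CPM over the 6 groups, the genes fell into a few patterns. Tnfrsf11a and Traf6 were highest in WT OC and next in WT BMM, with no overlap at either step, and their null OC and null BMM groups overlapped. Tyrobp, Fcer1g and Trem2 were highest in WT BMM, followed by null BMM and null OC, with overlapping ranges. Csf1r was highest in null BMM, null OC and WT BMM, which overlapped, above WT OC and then both OB groups. Syk and Plcg2 were highest in null OC, and for both the OB groups were lowest and apart from the rest.

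Across the 36 libraries, as a description over groups that share culture type, the closest pairs among the 9 were Csf1r and Plcg2 (r 0.975), Fcer1g and Trem2 (0.970) and Syk and Plcg2 (0.957), in log2 CPM. Tnfrsf11a went with Traf6 at 0.805 and with Trem2 at -0.04. Of the 8947 genes with a mean of at least 10 CPM, those most like Tnfrsf11a were Antxr2 (0.977), Dnmt3a (0.971) and Parvb (0.966). Those most like Oscar were Ocstamp (0.992), Mst1r (0.989) and Ctsk (0.989), and those most like Trem2 were Ctsd (0.990), P2ry6 (0.982) and Unc93b1 (0.982).

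Of the 9 genes, 3 had a second transcript abundant enough to compare. For Trem2, the transcript of 1088 bases (681 coding) rather than that of 1056 (747 coding) made up 80.0% ± 0.6 of the gene's TPM in WT BMM and 77.6% ± 1.1 in null BMM (SD, n = 6), a difference of -2.5 points (two-sided exact permutation p 0.00216, the smallest this design can give, adjusted 0.0195 over 9 tests). The other 8 tests did not pass. For Syk, whose 2 main transcripts share a coding length of 1887 bases and start at 52583173 and 52596853, the share of the first was 48.9% ± 7.1 in WT BMM and 37.2% ± 15.4 in null BMM (exact permutation p 0.121, adjusted 0.273). In OC it was 65.7% ± 9.0 and 54.4% ± 8.7 (exact permutation p 0.0498, adjusted 0.149).

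Genes around these receptors were taken from 8 lists chosen by role. RANK proximal signalling (14 genes, adaptors and kinases next to Traf6) had 7 genes higher and 2 lower in null BMM, with a list median of 0.32 against 0.02 over all genes, of which 27.0% were higher and 25.4% lower. Traf3, which restrains the alternative NF-κB pathway, was higher by the most (log2 change 1.71, SE 0.11, adjusted p 1.78e-09), at 36.2 ± 4.52 against 11.2 ± 1.37 CPM (SD, n = 6). Gab2, a scaffold that binds RANK, was lower by the most (-0.74, SE 0.09, adjusted p 5.73e-06). In OC 3 were higher and 3 lower, beside 65.6% of all genes called, with Sqstm1 at 1.06 and Traf1 at -1.56. RANK-L raised 6 and lowered 3 in WT, led by Traf1 (3.05) and Gab2 (-0.89), and raised 1 and lowered 1 in null. Both shares called were near those of all genes, 60.5% in WT and 12.9% in null.

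M-CSF receptor proximal signalling (14 genes) had 4 genes higher and 5 lower in null BMM and 5 higher and 4 lower in null OC, shares called that are near those of all genes (52.3% and 65.6%). The kinase Src, which osteoclasts need for resorption, had 8.45 ± 2.15 CPM in null BMM and 0.918 ± 0.537 in WT BMM (log2 change 3.22, SE 0.31, adjusted p 4.31e-07). WT cells raised it with RANK-L to 119 ± 4.05 CPM (log2 change 7.02), and null OC stayed at 8.85 ± 1.60 CPM (null against WT -3.73, SE 0.10, adjusted p 1.01e-14). Cbl, a ubiquitin ligase that acts on Csf1r, fell by 0.93 in null BMM. The adaptor Gab1 was lower in WT OC than in WT BMM (-1.92) and higher in null OC than in WT OC (2.49).

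Of the other receptors that pair with ITAM adaptors (15 genes), 9 of 14 tested were higher and 2 lower in null BMM, where 27.0% of all genes were called higher, with a list median of 0.87 against 0.02. In null OC 13 of 15 were higher and 2 lower, where 32.4% of all genes were called higher, with a median of 1.80 against -0.03. In null OB 1 was higher and 7 lower, beside 15.5% and 16.9% of all genes. Sirpb1c led in BMM (3.40), but its family has near-identical copies and its level is uncertain. Fcgr1, the high-affinity IgG receptor, was lowest there (-1.39, SE 0.13, adjusted p 4.17e-07). In OC Clec4e, a receptor for microbial glycolipids, was at 208 ± 23.8 CPM in null and 9.53 ± 2.30 in WT (log2 change 4.46, SE 0.14, adjusted p 5.70e-14). Siglec15, which acts with Tyrobp in osteoclasts, was, like Oscar, nearly confined to WT among the RANK-L cultures: 31.7 ± 1.79 CPM in WT OC against 0.118 ± 0.105 in null OC (log2 change -7.88, SE 0.24, adjusted p 5.16e-14). In WT, RANK-L lowered 11 of the 15 and raised 2, beside 30.1% and 30.4% of all genes. Summed neutrophil markers (10 genes) were 2.17 to 3.57 TPM in WT BMM, 44.2 to 107 in null BMM and 41.4 to 55.9 in null OC. Nearly all of that was S100a8, while S100a9, Ltf, Elane and Retnlg were at 0 in every null BMM library, and the part of such cells in these results was not tested.

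Among the ITAM kinases and signalosome (14 genes), 7 were lower and 2 higher in null BMM, beside 25.4% and 27.0% of all genes. In null OC 6 were higher and 3 lower, beside 32.4% and 33.1%. The Src-family kinase Fgr differed the most in BMM, at 86.4 ± 9.47 CPM in null BMM against 3.65 ± 0.797 in WT (log2 change 4.57, SE 0.13, adjusted p 2.83e-13). RANK-L raised Fgr in WT to 72.8 ± 2.29 CPM (4.31). Cblb, which limits this pathway, was lower in null by 1.44 in BMM and by 1.74 in OC on the log2 scale (-1.44 and -1.74). The adaptor Blnk, which links Syk to Plcg2, fell with RANK-L in WT by 1.25.

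In the calcium and calcineurin step (10 genes), null BMM had 1 higher and 4 lower, beside 27.0% and 25.4% of all genes. Null OC had 3 higher and 4 lower, beside 32.4% and 33.1%. Rcan1, a calcineurin-regulated gene, rose in WT with RANK-L from 8.07 ± 2.31 to 176 ± 9.76 CPM (log2 change 4.44, SE 0.18, adjusted p 1.30e-17) and was at 15.8 ± 4.63 CPM in null OC (null against WT -3.47, SE 0.15, adjusted p 8.94e-12). The calcium channel Orai1 was higher in null, by 0.84 in BMM and 1.84 in OC. The calcium release channel Itpr3 was lower in null BMM (-1.78).

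Inhibitory receptors and phosphatases (10 genes) had 2 higher and 5 lower in null BMM, beside 27.0% and 25.4% of all genes. In null OC 7 were higher and 0 lower, beside 32.4% and 33.1%. Fcgr2b, the inhibitory IgG receptor, was lowest in null BMM, at 134 ± 9.06 against 923 ± 97.5 CPM (log2 change -2.77, SE 0.08, adjusted p 1.91e-13). RANK-L also lowered it in WT, to 61.9 ± 1.40 CPM. The phosphatase Ptpn6 (SHP-1) was higher in null BMM (0.48), and the inhibitory receptor Lilrb4a was higher in null OC (1.36).

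The RANK-L target genes (10 genes, among them Ctsk, Acp5 and Mmp9) are known to be induced downstream of RANK. They include the 7 osteoclast markers summed above. RANK-L raised 10 of 10 in WT, with a median log2 change of 9.42, where 30.4% of all genes were higher. In null it raised 7 of 10, with a median of 1.01, where 6.78% of all genes were higher. In null OC 10 of 10 were below WT OC, with a median of -6.66, where 33.1% of all genes were lower. Only 7 of the 10 were tested in the BMM fit, so the others entered the RANK-L fit through OC libraries. Among these, Calcr was at 0 TPM in every null BMM and null OC library. Its change with RANK-L in null compares 0 with 0, and it entered the OC fit through WT OC alone. Calcr, the calcitonin receptor, had 0 counts in every null OC library and 32.8 ± 2.37 CPM in WT OC, at least 146-fold higher than the floor of 3 counts. Mmp9, a gelatinase of osteoclasts and neutrophils, was already at 186 ± 23.8 CPM in null BMM against 0.336 ± 0.201 in WT BMM (log2 change 9.15, SE 0.20, adjusted p 1.10e-14), and RANK-L brought it to 6861 ± 593 CPM in WT OC. Itgb3, a subunit of the osteoclast integrin, was lower in null BMM (-1.29).

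**Figure D4:**
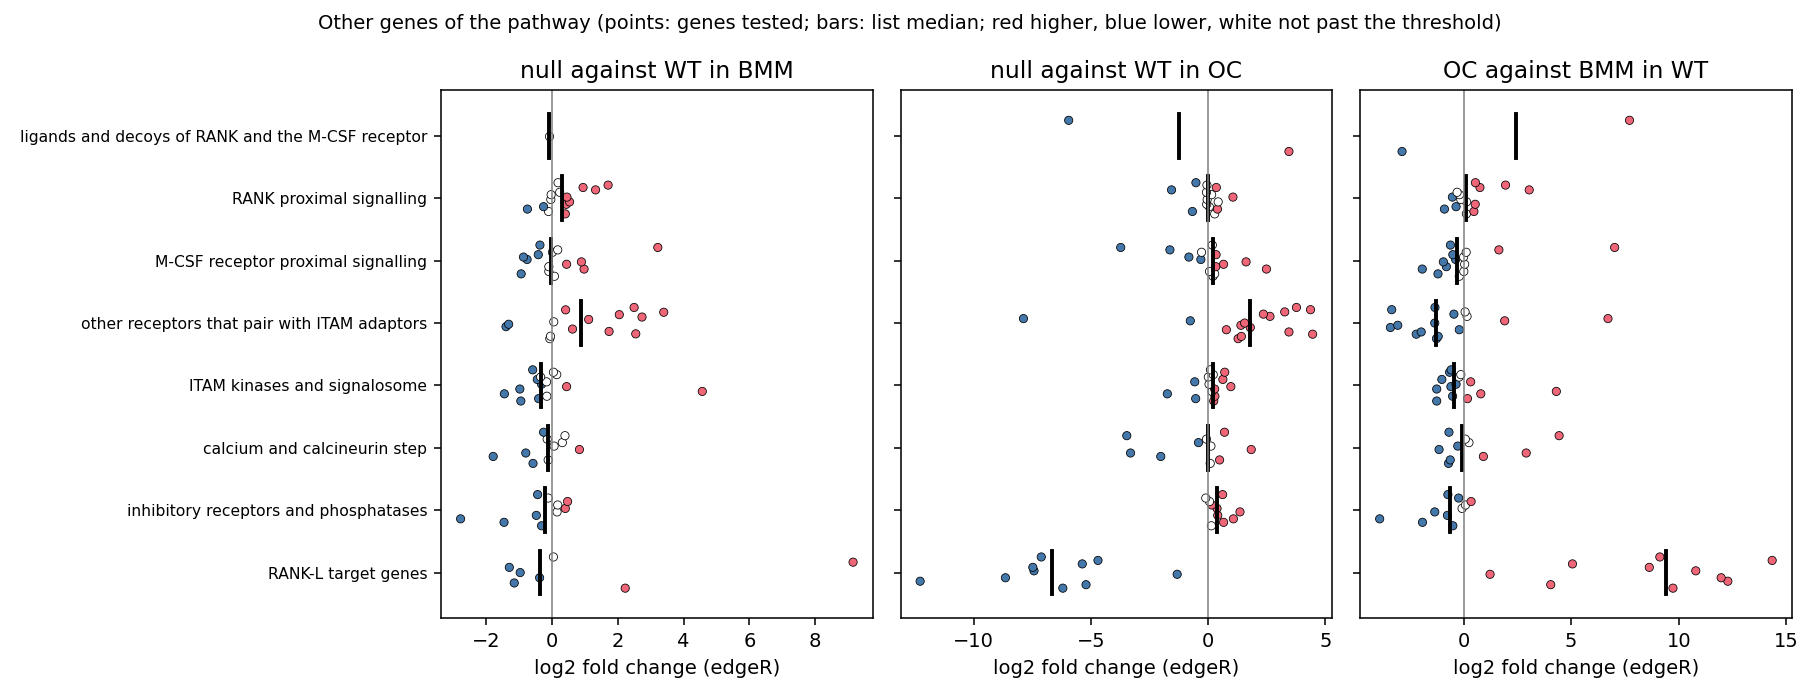
Log2 change of each tested gene in the 8 lists, for null against WT in BMM, null against WT in OC and WT OC against WT BMM, with red for higher, blue for lower, white for not past the threshold and a bar at the list median. The RANK-L target genes lie at a median of 9.42 in the right panel and -6.66 in the middle panel, and the other ITAM-paired receptors at -1.26 and 1.80.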

How the data were processed

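Per the labels' protocols, total RNA was extracted with the mirVana kit and libraries were made with an NEB low-input RNA kit. The submitters' processing notes name kallisto and DESeq2 without versions, and name GRCh38, a human build, although the transcript identifiers are mouse. Per the file headers, the authors deposited for each transcript an estimated count, not rounded, and a TPM value, which carries no depth. Of 88198 transcripts, 97.54% matched GENCODE M21 (GRCm38) by identifier, and 88.91% of these had the annotated length. Unmatched transcripts held 0.629% to 0.974% of a library's counts and were left out. Estimated counts were summed per gene and rounded. Groups and replicate numbers came from the titles.

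Tests used edgeR 4.0.16 (limma 3.58.1, R 4.3.3): filterByExpr, TMM, robust quasi-likelihood F test, p-values adjusted by Benjamini-Hochberg across every gene in the fit, threshold 0.05. Genotype comparisons used 12 libraries, RANK-L comparisons and the interaction 24, and the OB against BMM difference 36. The SE was derived from F. Levels are CPM with TMM factors over 36 libraries. TPM served for ratios between genes. With 14118972 to 26347581 counts per library, 3 counts per library was taken as the floor, a limit of counting error alone, because no molecular identifiers were used and reads need not be separate molecules. Transcript shares were compared by exact permutation. Each fit was tested on simulated data.

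The members and gene lists were chosen with earlier results of these data known. All 9 members were named. From each list the called genes with the largest change in each direction were named, if their mean reached 1 CPM, for null against WT in BMM and OC and for WT OC against BMM, with all ligands; 1 gene that this rule names is not reported here. For Tnfrsf11a, Oscar and Trem2 the 3 genes with the highest Pearson correlation of log2 CPM were named. Alternatives were RLE scaling, other filters, DESeq2 1.42.0, limma-voom, offsets for transcript length and for length with GC content (lowess span 0.3), limma on log2(TPM + 0.5), a replicate block, a fit of all 36 libraries, and leaving out each library. Leaving out null OC replicates 3 and 6, or 3 null BMM replicates, was chosen after seeing the data. The level of Mir324 was not analysed here.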

Additional observations from a re-analysis of the deposited data

Results flagged for a closer look

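Library by library, 2 of 53 groups of 6 had a library far from the others by Dixon's test at 95%, a rate of about 1 in 20 being due to chance, and both concern Oscar. Null BMM replicate 1 had 0.213 CPM, which is 4 counts, and the next library 0.0565 CPM. Null OC replicate 6 had 3.38 CPM and the next library 1.55 CPM.

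The genotype effect with RANK-L differed from that without it, past the threshold of the interaction (edgeR), for 7 genes, as log2 fold changes: Trem2 1.92, Fcer1g 1.32, Plcg2 0.76, Csf1r 0.32, Traf6 -0.87, Tnfrsf11a -1.39 and Oscar -9.66. The Oscar value rests on BMM libraries at or near 0 counts, depends on the prior count, and was -8.09 with an adjusted p of 0.0756 without null BMM replicate 1, its range over single left-out libraries being -10.87 to -8.09. The effect in OB cultures differed from that in BMM for 6 genes: Traf6 1.81, Tnfrsf11a 1.12, Fcer1g -0.47, Trem2 -0.57, Tyrobp -0.60 and Syk -0.62.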

How the results depend on the processing

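Of 2009 log2 fold changes of the 9 genes under alternatives, 1884 kept their direction and their side of the threshold, 55 fell below it, 31 rose past it and 39 changed sign. The count of genes called in null BMM, 4 of 8, was 7 with the length and GC offset and 7 with limma on TPM, without the shares of all genes called with these settings. The count for null OC against null BMM, 4 of 9, was 2 without the filter, with the length and GC offset, with the replicate block and without null OC replicates 3 and 6 together, 1 with the block and the offset, and 2 to 5 when single libraries were left out. Signs changed as follows. With the length and GC offset: Plcg2 in BMM 0.03, Traf6 -0.01 and Csf1r -0.11 in OB, Tnfrsf11a -0.03 between null OC and BMM, Syk -0.06 in the interaction and Fcer1g 0.03 in the OB against BMM difference. With the block and that offset, in the same order: 0.03, -0.04, -0.10, -0.02, -0.06 and 0.02. With limma on TPM: Csf1r in BMM -0.07, Tyrobp in OC -0.10, Syk 0.12 and Plcg2 0.01 in OB, and in the OB against BMM difference Csf1r 0.31, Oscar 0.12 and Plcg2 0.26. Without null BMM replicates 1, 5 and 6: Tyrobp 0.16 and Trem2 0.04. Without null OC replicates 3 and 6: Csf1r 0.02 between null OC and BMM. Leaving out single libraries: Tyrobp in BMM -0.12 to 0.02, Syk in OB -0.12 to 0.02, Tnfrsf11a between null OC and BMM -0.01 to 0.07, the OB against BMM differences of Csf1r (-0.05 to 0.04), Oscar (-2.80 to 0.02) and Plcg2 (-0.10 to 0.02), and the transcript share of Tnfrsf11a in OC (-3.3 to 0.1 points). The cause was not tested.

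On the TPM scale the median of all genes was -0.14 in BMM, -0.23 in OC, 0.15 in OB and 0.28 in the OB against BMM difference, and 32.1%, 32.3%, 80.6% and 76.2% of calls were higher, against 51.5%, 49.4%, 47.9% and 47.1% with edgeR; for null OC against BMM it was 64.6% against 52.8%, and for WT 60.5% against 50.2%. Over all genes, 4420 calls in OB became 2289 with the length and GC offset and 1979 with the block added, and 1628 calls between null OC and BMM became 1013 with limma-voom, 1016 with the block and offset, 840, 810 and 948 without null BMM replicates 2, 3 and 4, and 1046 without null OC replicate 3. Deviations of same-numbered libraries correlated at -0.131 to 0.103, and not every library went best with its own number. This check cannot tell whether same-numbered libraries came from the same mouse, which the labels do not say. The replicate block gave 4, 8, 4, 8, 2, 7 and 6 genes of the 9 called in BMM, OC, OB, WT and null OC against BMM, the interaction and the OB against BMM difference. Genes under 3 counts per library cannot be told from 0 at this depth.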

Other observations

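Most of the lists around these receptors were not described above for the OB cultures. The ITAM kinases and signalosome had 0 of 14 genes higher and 6 lower in null OB (median log2 fold change -0.22), the other receptors that pair with ITAM adaptors 1 higher and 7 lower of 15 (median -0.33), and the inhibitory receptors and phosphatases 1 higher and 6 lower of 10 (median -0.29). The RANK-L target genes went the other way, with 4 of 10 higher and 0 lower (median 0.31), and the calcium and calcineurin step had 5 of 10 higher and 1 lower (median 0.18). These counts are edgeR calls at an adjusted p of 0.05, and stand beside 15.5% of all genes called higher and 16.9% called lower. Macrophage markers summed lower and osteoclast markers summed higher in null OB than in WT OB, and their part in these counts was not tested.

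The ratio of adaptors (Tyrobp plus Fcer1g) to the 2 receptors (Trem2 plus Oscar) in TPM had group medians of 5.28 in WT BMM, 5.03 in null BMM, 6.12 in WT OC, 4.79 in null OC, 6.38 in WT OB and 6.01 in null OB. Its ranges in WT BMM (4.95 to 5.77) and WT OB (6.07 to 7.16) did not overlap. Syk per Plcg2 had a median of 0.611 in WT BMM and between 0.927 and 1.24 in the other 5 groups. The WT BMM range (0.555 to 0.834) overlapped those of null BMM (from 0.810), WT OC (from 0.769) and WT OB (from 0.690), but not those of null OC and null OB.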
